A study of Mus musculus with 12 samples.

Results

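The genes described here are those with a higher level in the liver of NLRP6 knockout mice (KO) than of wild-type mice (WT) on a normal diet (ND). On a high-fat diet (HFD) their KO mean lies between 0.67 and 1.5 times the WT mean. These genes number 150 of the 42554 rows in the count table. The rule took the read counts of each library divided by the library's total and scaled to a total of 1000000 (CPM). It asked for an annotated gene ID, a mean over the 12 libraries of 1 to 1000 CPM, and a ratio of the KO ND to the WT ND mean of at least 1.6 with every KO ND library above every WT ND library, an order held by 15.2% of all rows with such an ID and mean level. It also asked that the ratios of WT HFD to WT ND and of KO HFD to WT HFD both lie above 0.67 and below 1.5. A block of consecutively numbered IDs was left out. The members were therefore chosen by the mean level of all 4 groups, and their differences between these groups are given as a description. Counts of members called by edgeR in these contrasts are printed beside the share of all genes called where that was computed, and nothing is read from them. The share of all genes at an unadjusted p under 0.05 was not computed.

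RNA was sequenced from whole liver in 4 groups of 3 libraries. WT ND and KO ND mice ate a normal diet throughout. WT HFD and KO HFD mice ate the normal diet until 8 weeks of age and then a high-fat diet for 12 weeks. The same start age is listed for the ND groups. Their age at sampling is not listed, so whether the diets also differ in age is not known here. The stated aim concerns the part of NLRP6 in lipid droplet accumulation in hepatocytes. No other allele or agent is named for the KO mice. According to the submitters the loss of NLRP6 was checked in hepatocytes, and the sources used here do not say whether other cells lost it. They also do not give the strain, the sex or whether KO and WT mice were littermates. Nothing in them says that the 3 libraries of a group came from separate mice. A p-value here therefore reflects variation among libraries that may be technical in part.

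NLRP6 is a NOD-like receptor, a family of intracellular sensors of microbial products and cell damage. It can join the adaptor ASC and caspase-1 in an inflammasome, the complex that matures interleukin-1β and interleukin-18, and it is best known from the intestinal epithelium. The liver transcriptome is dominated by hepatocytes, which make plasma proteins and bile acids and handle lipids and foreign compounds, and it also holds RNA from immune, endothelial, stellate and biliary cells. In bulk liver, a larger share of a cell type and more RNA per cell cannot be told apart. The files give only IDs of a C57BL/6NJ strain annotation, and 0 of them could be paired with a symbol, so the roles of the members and the markers of liver cell types were not analysed here. Of the members, 4 are printed by ID, and the others are described by rank, count and range.

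Total counts were 13339879 to 15933886 per library. All 150 members had enough counts to be tested among 13843 genes. The lowest count of a member in a library was 1, and 17 members had under 10 counts in at least 1 library. In the table, 1 row held at least 5 counts in every WT library (2019 to 2981) and 0 in all 6 KO libraries, and its ID lay within the block left out by the rule. Whether this row is Nlrp6 was not analysed here.

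By their median, the members were higher in the 3 KO ND libraries than in the other 9. Single members varied: every KO ND library lay above all 9 others in 110 of 150, and in the rest at least 1 HFD library reached the level of a KO ND library. The rule favours this order and its share over all eligible rows was not computed, so nothing is read from the 110. Each member's CPM was divided by its own WT ND mean, and the median over the members was taken in each library. This relative level was 0.964, 0.958 and 1.07 in WT ND replicates 1 to 3, and 1.71, 1.96 and 1.73 in KO ND replicates 1 to 3. On HFD it was 0.970, 0.902 and 0.929 in WT and 0.959, 0.998 and 0.966 in KO. The KO ND libraries stood apart from all others by this measure, which the rule fixed, while the HFD libraries of both genotypes overlapped each other. KO ND replicate 2 was the highest of its group for 83 members, against 34.8% of all eligible rows (the 11702 annotated rows of 1 to 1000 CPM outside the left-out IDs).

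**Figure D1:**
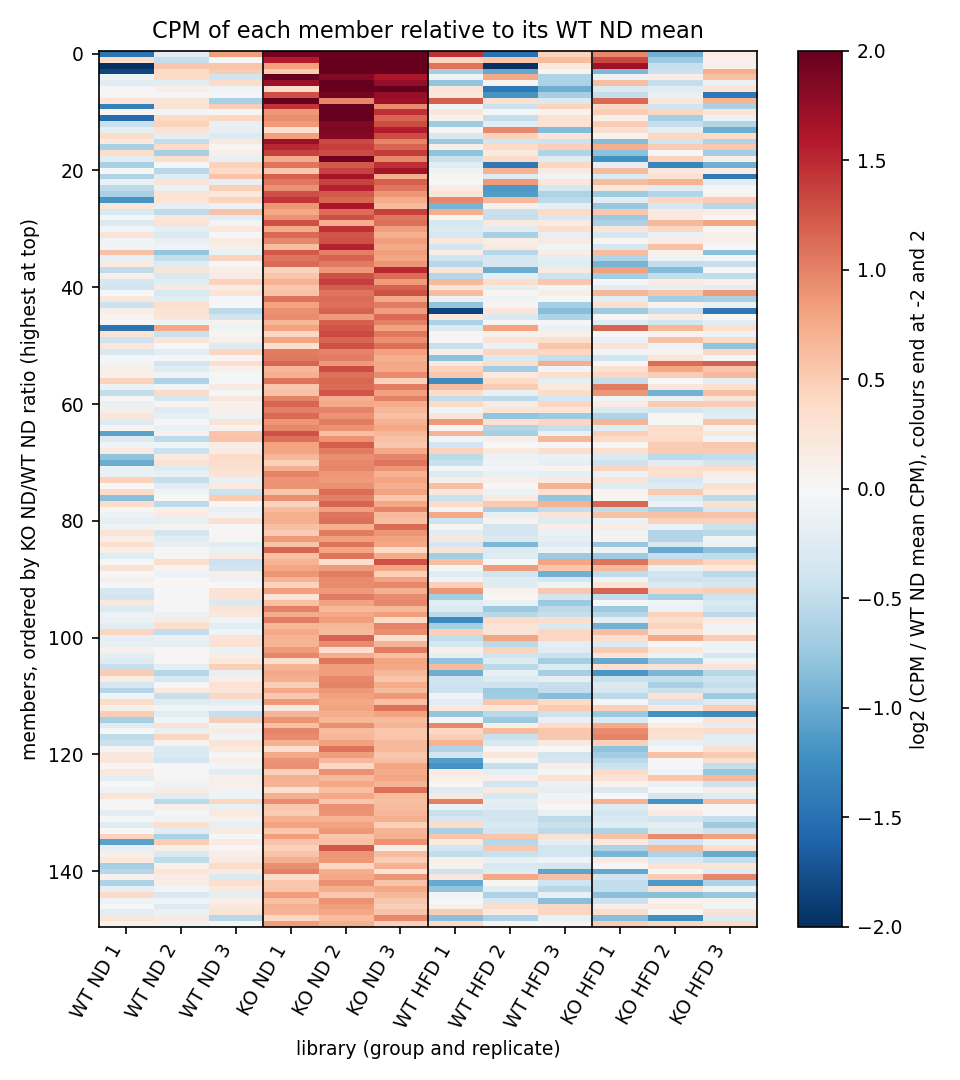
Heat map of the 150 members (rows, ordered by the KO ND/WT ND ratio) in the 12 libraries (columns); colour is log2 of CPM over the member's WT ND mean, with colours ending at -2 and 2. The 3 KO ND columns are red from top to bottom, as the rule requires, and the WT and KO HFD columns are mixed.

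Reads of the members made up 0.458% ± 0.0408 of a WT ND library and 0.867% ± 0.0764 of a KO ND library (SD, n = 3 each). On HFD the share was 0.463% ± 0.0153 for WT and 0.418% ± 0.0367 for KO (SD, n = 3 each). In KO ND the member with the highest CPM made up 19.2% of the members' summed level and the 5 highest made up 43.6%. Without that member the summed level was 3748 ± 302 CPM in WT ND and 7010 ± 569 CPM in KO ND (SD, n = 3 each). For the HFD libraries it was 3832 ± 118 CPM in WT and 3593 ± 254 CPM in KO (SD, n = 3 each). The KO ND sum was thus the highest with and without the largest contributor, as the rule sets, and the libraries of the other groups overlapped in both sums.

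**Figure D2:**
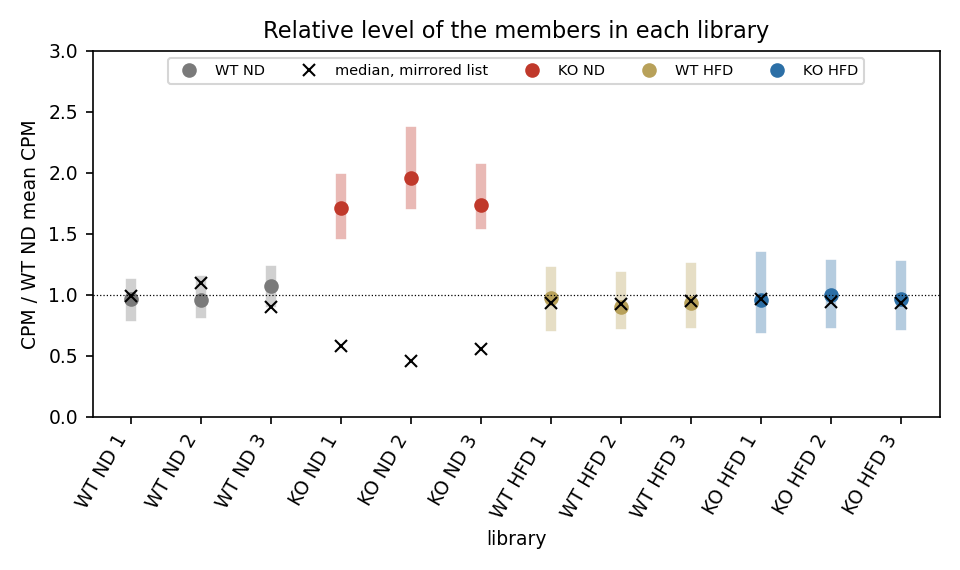
Relative level of the members in each library: points are the median over 150 members of CPM divided by the member's WT ND mean, bars run from the lower to the upper quartile over members, and crosses are the median of 217 genes chosen by the mirrored rule. The KO ND points lie between 1.71 and 1.96, and every other point lies between 0.902 and 1.07.

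Most members lay near the lower limit of the rule. The ratio of KO ND to WT ND had a median of 1.80 and quartiles of 1.68 and 2.02. It was under 1.7 for 45 members, at least 2 for 41, at least 3 for 9 and at least 4 for 3. The 3 members just inside the limit had ratios of 1.601, 1.602 and 1.603, and the 3 rows just outside that met every other condition had 1.599, 1.597 and 1.596. A further 76 rows met every other condition with a ratio of 1.5 to under 1.6. The gap between the groups was narrow for many members: the lowest KO ND library was under 1.1 times the highest WT ND library in 25, at least 1.5 times in 24 and at least 2 times in 5.

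MGP_C57BL6NJ_G0018910 had the highest ratio, 8.28. Its level was 2.11, 4.97 and 10.3 CPM in WT ND replicates 1 to 3, and 22.1, 64.9 and 57.01 CPM in KO ND. On HFD it was 15.98, 2.06 and 7.87 CPM in WT and 11.2, 2.97 and 6.39 CPM in KO. The KO ND libraries were the 3 highest of the 12, and the WT and KO libraries overlapped on HFD. The replicates of each group differed several-fold, with a KO ND mean of 48.0 ± 22.8 CPM and a WT ND mean of 5.80 ± 4.16 CPM (SD, n = 3 each). The fitted log2 fold change on ND was 3.07 (SE 0.82), which edgeR did not call. This member is also at the edge of the HFD bounds, with a WT HFD to WT ND ratio of 1.49.

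MGP_C57BL6NJ_G0034083 had the highest CPM in KO ND, which depends on transcript length as well as on abundance. It had 972, 710 and 817 CPM in WT ND, and 1774, 1801 and 1409 CPM in KO ND. On HFD it had 768, 786 and 836 CPM in WT and 720, 515 and 532 CPM in KO. The groups did not overlap on either diet, and their order was opposite: KO was above WT on ND and below it on HFD. The ND means were 833 ± 132 CPM in WT and 1662 ± 219 CPM in KO, and the HFD means were 797 ± 35.2 CPM in WT and 589 ± 114 CPM in KO (SD, n = 3 each). The fitted log2 fold change of KO against WT was 1.01 (SE 0.19) on ND and -0.50 (SE 0.19) on HFD, where edgeR made no call. The edgeR call on ND was lost with WT ND replicate 2 left out (log2 0.89). It was also lost with the second KO ND library left out (log2 0.94). The member lies near the upper limit of the rule, with a mean of 970.0 CPM.

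MGP_C57BL6NJ_G0017490 and MGP_C57BL6NJ_G0037374 had the lowest KO HFD to KO ND ratios after the first gene, 0.208 and 0.2508, the next being 0.2511. MGP_C57BL6NJ_G0017490 had 3.24, 3.08 and 3.06 CPM in WT ND, and 7.66, 11.8 and 10.5 CPM in KO ND. On HFD it had 3.63, 1.37 and 1.97 CPM in WT and 2.25, 2.83 and 1.16 CPM in KO. Its WT ND libraries were close together and every KO ND library was at least 2.36 times the highest of them. The call on ND (fitted log2 1.69, SE 0.34) was lost when WT ND replicate 2 was left out (log2 1.65). The same held when KO ND replicate 2 (log2 1.54) or 3 (log2 1.66) was dropped. MGP_C57BL6NJ_G0037374 rested on few reads, with 9, 13 and 18 counts in WT ND, 31, 31 and 38 in KO ND, 11, 5 and 17 in WT HFD and 11, 5 and 7 in KO HFD. Its fitted log2 fold change on ND was 1.27 (SE 0.45), which edgeR did not call.

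**Figure D3:**
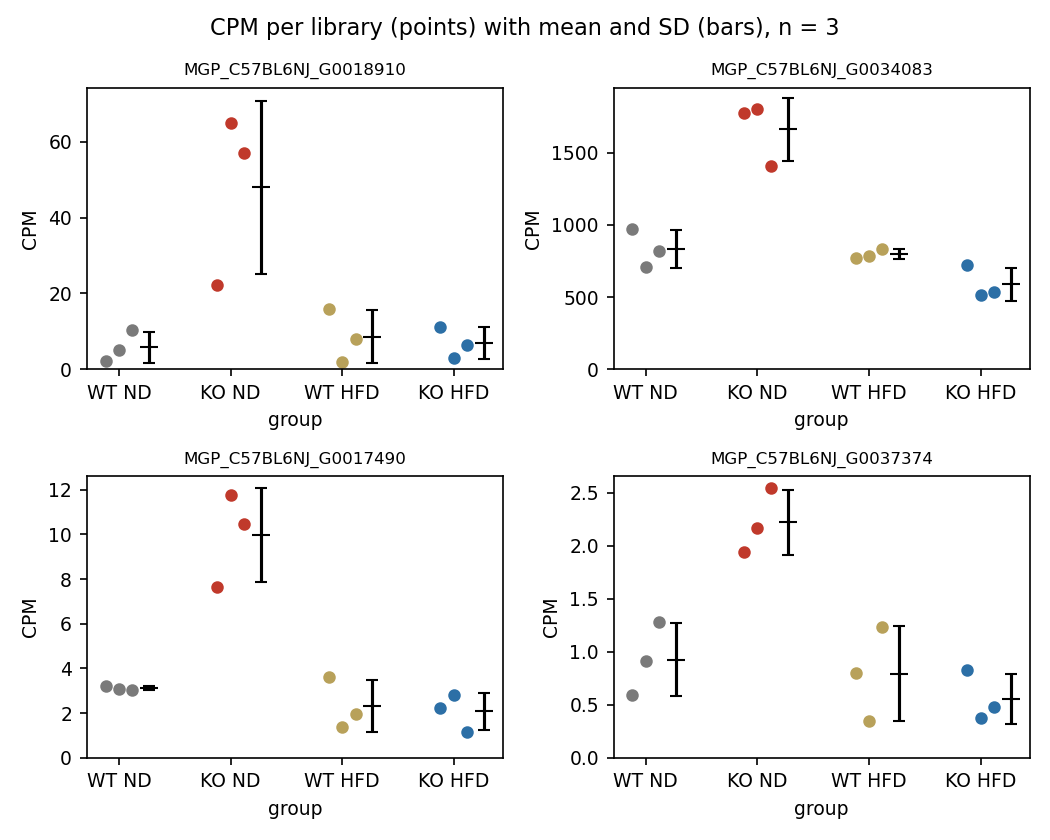
CPM of the 4 members printed by ID in each library (points, 3 per group) with the group mean and SD (black bars, n = 3); each panel has its own linear axis from 0. In every panel the 3 KO ND points are above all 9 others.

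A few other members, picked with their values in view, show how the spread within KO ND varied. The member second by ratio (5.13) had 75.7, 42.7 and 58.8 CPM in WT ND and 176, 456 and 276 CPM in KO ND. Its HFD levels were 79.2, 87.2 and 90.8 CPM in WT and 150, 35.6 and 63.0 CPM in KO, so that KO HFD libraries lay on both sides of the WT HFD libraries. The member ranked 33 (2.06) had 148, 138 and 175 CPM in WT ND and 298, 376 and 275 CPM in KO ND. On HFD this member held a narrow range, 180, 166 and 174 CPM in WT and 160, 169 and 164 CPM in KO. The member ranked 5 (3.62) had 1.12, 1.61 and 0.924 CPM in WT ND and 5.15, 4.35 and 3.76 CPM in KO ND, with 0.802 to 2.06 CPM over the 6 HFD libraries.

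Within KO, the members were lower on HFD than on ND, a difference that the conditions of the rule set in large part. The KO HFD mean was below the KO ND mean for 149 of 150, with a median ratio of 0.533 against 0.865 over all eligible rows. For 121 members every KO HFD library lay below every KO ND library (38.6% of all eligible rows). With library sizes scaled by trimmed means of M-values (TMM) this held for 97 (30.7% of all eligible rows). The opposite order was found for 0 members in CPM of totals (19.2%) and for 1 after TMM scaling (27.1%). The fitted log2 fold change of HFD against ND in KO had a median of -0.70 over the members and 0.01 over all tested genes. By edgeR, 80 of 150 members were called lower at an adjusted p under 0.05, beside 22.1% of all genes tested, and 0 were called higher (22.6% of all genes; 0 at an unadjusted p under 0.05, and 0 by DESeq2). Nothing is read from these counts since the rule used these levels. In the TMM-scaled fit 145 of 150 log2 fold changes were negative. In CPM of totals the single exception was the member ranked 135, with 11.8, 9.74 and 10.9 CPM in KO ND and 9.97, 12.9 and 11.8 CPM in KO HFD.

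**Figure D4:**
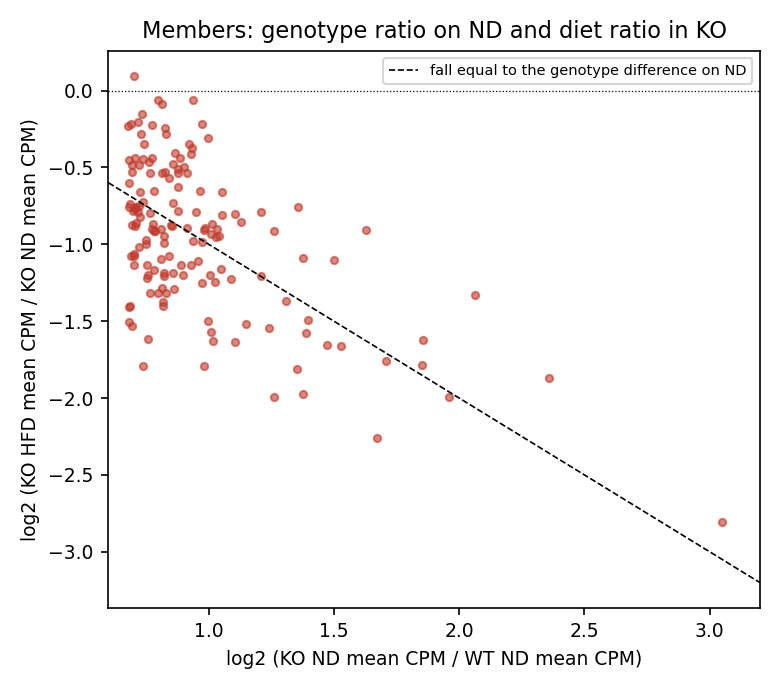
Each point is 1 of the 150 members, with log2 of the KO ND over WT ND mean CPM on the horizontal axis and log2 of the KO HFD over KO ND mean CPM on the vertical axis; the dashed line marks a fall in KO equal to the genotype difference on ND. All but 1 point lie below 0 on the vertical axis, and the rule bounds how far a point can lie from the dashed line.

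On HFD the genotype ratio of the members was held within the bounds of the rule. The ratio of KO HFD to WT HFD ran from 0.676 to 1.497 with a median of 1.04, and it was above 1 for 85. In the TMM-scaled fit 72 members had a positive and 78 a negative log2 fold change, so neither direction prevailed on both scales. The rule used these means but not the order of the single libraries. KO HFD lay wholly above WT HFD in 8 members (8.84% of all eligible rows) and wholly below in 6 (4.26% of all eligible rows), or 5.33% and 4% of the members. After TMM scaling these counts were 6 (6.54% of all eligible rows) and 10 (5.94%). The bounds of the rule on the HFD means limit such separation in the members and not in the eligible rows, so nothing is read from these shares. By edgeR 0 members were called higher (0.0867% of all genes) and 0 lower (0.159% of all genes). At an unadjusted edgeR p under 0.05 there were 2 higher and 7 lower, a share not computed over all genes. DESeq2 called 0 members, beside 1.89% of all genes in either direction. Without KO HFD replicate 1, 2 members were called, beside 5.79% of all genes in either direction, against 0.246% with all libraries. That library differed most from the others of its group, and the low number of HFD calls depended on including it.

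The condition on diet in WT depends on how the libraries are scaled. Over all eligible rows the median log2 ratio of WT HFD to WT ND was -0.35 in CPM of column totals and -0.06 after TMM scaling, a shift of 0.29. The corresponding shift was 0.20 for diet in KO, 0.02 for genotype on ND and -0.07 for genotype on HFD. The members' WT HFD to WT ND ratio had a median of 0.956 in CPM of totals, against 0.786 over all eligible rows, and 1.17 after TMM scaling, against 0.960. WT HFD lay wholly above WT ND in 10 members (14.9% of all eligible rows) and wholly below in 13 (45.3%) in CPM of totals, and in 32 (25.8%) and 1 (29.9%) after TMM scaling. In the TMM-scaled edgeR fit 20 members were called higher on HFD in WT (19.5% of all genes) and 0 lower (21.5% of all genes; 0 at an unadjusted p under 0.05, and 0 by DESeq2). Leaving out 1 library moved the 20 calls by over 1.5 times in 4 of 12 fits. They became 8 (WT ND replicate 2), 13 (WT ND replicate 3), 12 (WT HFD replicate 1) or 9 (WT HFD replicate 3). The share of all genes called in either direction was 32.2%, 30.8%, 32.7% and 31.6% in these fits, against 41% with all libraries. The other 8 fits called 17 to 25 members, beside 35.8% to 44.2% of all genes. Under TMM scaling the rule chose 171 rows, 116 of them among the 150 members. Of the 34 lost, 31 had a WT HFD to WT ND ratio of at least 1.5 on that scale. For these 31 members the WT diet condition was met in CPM of totals and not after TMM scaling.

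On ND, 64 of 150 members were called higher in KO by edgeR, beside 1.96% of all genes tested. An unadjusted p under 0.05 in that fit was found for 142, a share not computed over all genes. By edgeR 0 were called lower, beside 2.85% of all genes, with 0 at an unadjusted p under 0.05 and 0 by DESeq2. After TMM scaling 149 kept KO ND wholly above WT ND (16% of all eligible rows). The rule used this contrast, so nothing is read from these counts. Members of at least 10 CPM were called in 52 of 73 cases and those under 10 CPM in 12 of 77. The median ratio was 1.77 in the first set and 1.88 in the second. The share of all genes called was not computed by level, so nothing is read from this split. Leaving out 1 library changed the 64 calls to 13 (WT ND replicate 2), 11 (KO ND replicate 2), 36 (KO ND replicate 3) or 41 (KO ND replicate 1). Calls over all genes fell as well, to 0.176%, 0.162%, 0.798% and 0.944% of the genes tested. DESeq2 called 103 members, beside 4.46% of all genes. Across all genes, 23.5% of those called higher in KO on ND were members.

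The diet by genotype interaction, the difference of the diet response between KO and WT, was negative in all 150, as follows from the rule. It was called by edgeR in 11 members, beside 0.441% of all genes called in that direction, and 0 were called in the other (0.766% of all genes; 0 at an unadjusted p under 0.05, and 0 by DESeq2). All 11 were also called on ND. Leaving out 1 ND library changed the 11 to 4 (WT replicate 2), 3 (KO replicate 2) or 7 (KO replicate 3), beside 0.127%, 0.127% and 0.275% of all genes. Leaving out 1 HFD library changed them to 6 (WT replicate 2), 0 (WT replicate 3), 39 (KO replicate 1), 5 (KO replicate 2) or 0 (KO replicate 3). The shares of all genes were 0.232%, 0.0281%, 2.59%, 0.204% and 0.0352%. The other 4 fits with 1 library left out called 9 to 15 members, beside 0.253% to 0.536% of all genes. DESeq2 called 44 members, beside 1.84% of all genes. In all, 46 members (30.7%) were called in none of the 5 comparisons, against 42.1% of all genes tested.

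The genotype difference was also described in libraries not used to pick the genes. For this, the rule was applied with 1 WT ND and 1 KO ND library left out, for each of the 9 pairs. The left-out pair was then compared. The genes chosen differ from pair to pair, and the pairs share libraries, so no test was made. The rule then chose 151 to 292 genes, of which 90 to 121 were among the 150 members. Their median log2 ratio of KO to WT was 0.83 to 0.88 in the kept ND libraries and 0.32 to 0.72 in the left-out pair, with medians over the 9 pairs of 0.86 and 0.50, or 1.82-fold and 1.42-fold. Over all eligible rows the left-out median was -0.06 to 0.02. Of the chosen genes 69.4% to 91.5% were higher in the left-out KO library, against 44.2% to 52.4% of all eligible rows. A ratio of at least 1.6 was found again for 21.9% to 53.0%, against 5.78% to 11.1% of all eligible rows. For most chosen genes the direction was found again in the left-out pair, with a smaller size than in the kept libraries. The rule itself was set with earlier results of these data known. The libraries are not shown to come from separate mice, so the left-out pair is not shown to be independent.

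**Figure D5:**
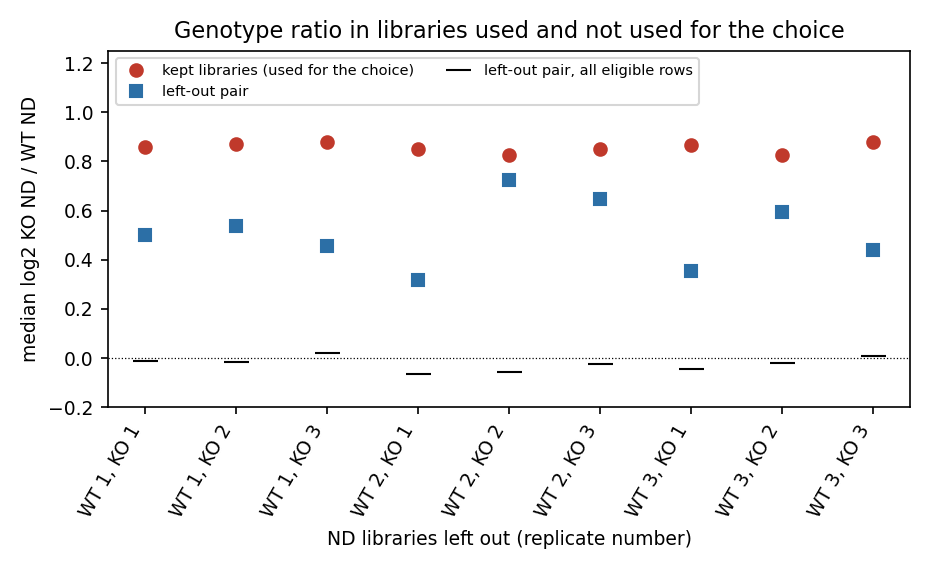
Median log2 ratio of KO ND to WT ND for genes chosen with 1 WT ND and 1 KO ND library left out (9 pairs on the horizontal axis, by replicate number): circles are the kept libraries, squares the left-out pair and dashes the left-out pair over all eligible rows. The squares lie between 0.32 and 0.72, below the circles and above the dashes in all 9 pairs.

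The lowest left-out value, 0.32, came from the pair of WT ND replicate 2 and KO ND replicate 1, and the highest, 0.72, from WT ND replicate 2 and KO ND replicate 2. With each of the 12 libraries left out in turn, 41 of the 150 members were chosen every time. These 41 had ratios of 1.71 to 3.62 with a median of 2.01. Of them, 29 were called on ND, beside 1.96% of all genes tested. The 41 were kept by passing the rule on this same contrast, so nothing is read from the 29. None of the 4 members printed by ID was among the 41. Leaving out WT ND replicate 3 gave the largest number of chosen rows, 230, of which 121 were members.

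The members had lower levels and a larger spread among ND replicates than the rows they were drawn from, and so did the genes of the mirrored rule, with KO ND lower than WT ND by the same factor. Their mean level over the 12 libraries had a median of 9.63 CPM, against 18.2 CPM over all eligible rows and 8.88 CPM over the mirrored list. The coefficient of variation among replicates had a median of 20.2% in WT ND, 15.6% in KO ND, 20.6% in WT HFD and 20.3% in KO HFD. The values over all eligible rows were 13.3%, 11.5%, 14.1% and 18.1%, and those of the mirrored list 17.9%, 20.3%, 15.2% and 17.96%. Among rows of at least 10 CPM the medians were 18.8% for the members and 10.8% for all eligible rows in WT ND, and 14.2% and 9.05% in KO ND. On HFD they were 13.01% and 10.9% in WT and 14.7% and 14.98% in KO. These differences in spread were not tested.

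Among all rows that met the ND conditions, 391 in number, 38.4% met both HFD conditions, against 50.4% of all eligible rows. The WT HFD to WT ND ratio was at least 1.5 in 27.1% of the 391, against 9.84% of eligible rows, and at most 0.67 in 29.4%, against 37.0%. This ratio and the genotype ratio share the WT ND libraries as denominator. A further 5 rows met every condition but had IDs in the left-out block, and 8 of 417 unannotated loci of 1 to 1000 CPM had ratios that met the same conditions.

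Some members carried consecutive ID numbers. There were 3 such pairs, ranked 7 and 11, 2 and 14, and 21 and 41 by ratio. In the pair ranked 2 and 14 the KO ND means were 303 ± 142 and 3.14 ± 1.47 CPM against WT ND means of 59.1 ± 16.5 and 1.20 ± 0.236 CPM (SD, n = 3 each). In the pair ranked 7 and 11 they were 4.20 ± 2.19 and 37.9 ± 14.1 CPM against 1.29 ± 0.0998 and 13.4 ± 0.417 CPM (SD, n = 3 each). In both pairs KO ND replicate 2 was the highest library for both members. The pair ranked 21 and 41 had KO ND means of 43.4 ± 15.6 and 139 ± 33.6 CPM against 18.1 ± 5.71 and 69.2 ± 14.2 CPM (SD, n = 3 each), and its highest KO ND library was replicate 3 for the first and replicate 2 for the second. Of the eligible rows next to a member by ID number 3.64% were members, against 1.28% of all eligible rows, and within 5 ID numbers the share was 1.85%. The 158 neighbouring rows that were not members had a median log2 ratio of KO ND to WT ND of 0.04, against -0.02 over all eligible rows. The sources used here do not say whether consecutive numbers mean neighbouring or overlapping genes. Reads of overlapping genes cannot be told apart without strand.

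The mirrored rule chose 217 genes. Their relative level was 0.454 to 0.577 in the KO ND libraries and 0.925 to 0.963 in the 6 HFD libraries. KO ND replicate 2 was thus the most extreme library of its group in both lists, at 1.96 in the members and 0.454 in the mirrored list. With a pair of ND libraries left out, the mirrored lists had a left-out median log2 ratio of -1.15 to -0.40, with a median over the 9 pairs of -0.65, against 0.50 for the lists of higher genes. The 2 directions use the same libraries and their difference was not tested.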

How the data were processed

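The authors deposited 1 table of whole-number read counts for 12 liver libraries, made from TRIzol RNA with the NEBNext Ultra kit for Illumina, per the labels' protocols. Alignment tools are known from the submitters' processing notes, which list mm39, featureCounts 1.5.0-p3 and HISAT2 2.0.5. The strand setting and the handling of shared reads are not given in the sources used here. The IDs belong to a C57BL/6NJ strain annotation rather than that of mm39, so no coordinates or sequences are given.

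CPM of column totals served the rule. For tests, filterByExpr kept 13843 genes, and edgeR 4.0.16 (R 4.3.3; TMM, robust quasi-likelihood) was fitted to all 12 libraries with a mean per group, with Benjamini-Hochberg adjustment over all genes and calls at 0.05. DESeq2 1.42.0 was an alternative. The edgeR fit of KO against WT on ND was run on simulated counts. It called 59% of the log2 changes of size 1 and 81% of those of size 2. Of all its calls there, 6.04% were false. The rule, the left-out pairs, the other contrasts and DESeq2 were not simulated. Left-out pairs used log2 of CPM plus 0.1. The members printed by ID were those with the highest ND ratio, the highest KO ND CPM and the 2 lowest KO HFD to KO ND ratios among the rest. The members and lists were chosen with earlier results of these data known. Replicates of a group were no duplicates (chi-square per degree of freedom 8.05 to 165). The highest values, 165 and 93.6, were those of KO HFD replicate 1 against replicates 2 and 3. KO HFD replicates 2 and 3 gave 23.1, and no pair of another group exceeded 47.3. Why KO HFD replicate 1 stood apart was not tested.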

Additional observations from a re-analysis of the deposited data

Results flagged for a closer look

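The genotype difference differed between the diets by the interaction term of edgeR in 11 members, all with a lower diet response in KO than in WT, out of 150 tested. Of all genes tested, 0.441% were called in that direction. The rule that chose the members asks for a difference on ND and a bounded one on HFD, so this is a property of the choice. Among the members printed by ID, MGP_C57BL6NJ_G0034083 was one of the 11: its diet response in KO minus that in WT came to -1.51 on the log2 scale, with an SE of 0.27. Its level was 833 ± 132 CPM in WT ND and 797 ± 35.2 in WT HFD, and 1662 ± 219 CPM in KO ND and 589 ± 114 in KO HFD (SD, n = 3 each).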

How the results depend on the processing

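Calls on ND numbered 64 by edgeR (1.96% of all genes) and 103 by DESeq2 (4.46%). The interaction calls numbered 11 (0.441%) and 44 (1.84%), and the cause was not tested. With 1 library left out, calls on ND ran from 11 to 87, beside 0.162% to 3.58% of all genes. Calls between genotypes on HFD ran from 0 to 2 (0.0493% to 5.79% of all genes) and diet calls in WT from 8 to 25 (30.8% to 44.2%). Lower calls on HFD in KO ran from 56 to 82 (17.5% to 22.5%) and interaction calls from 0 to 39 (0.0281% to 2.59%). The number of members ran from 136 to 230 with 1 library left out, and was 226 with a ratio of at least 1.5, 41 with a ratio of at least 2 and 59 with narrower HFD bounds, as the construction of these rules sets. The left-out median log2 ratio was 0.68 with a ratio of at least 2, against 0.50. With the replicate number as a block, the calls were 75 on ND (2.82% of all genes), 0 between genotypes on HFD (0.34%) and 20 for diet in WT (43.8%). They were 79 lower on HFD in KO (23.6%) and 14 for the interaction (0.578%), and no count moved by over 1.5 times. Same-numbered WT and KO libraries correlated in their deviations from the group means by 0.28, 0.06 and 0.01 on ND and by 0.27, 0.21 and 0.05 on HFD, and not every library correlated best with its own number, so the numbers were not taken to pair the libraries. MGP_C57BL6NJ_G0018910 was called on ND by DESeq2 and, by edgeR, without WT HFD replicate 2. No member printed by ID changed direction on ND under any alternative run, which the order of the ND libraries asked by the rule sets in large part. How far depth limits the members of few counts was not tested.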

Other observations

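MGP_C57BL6NJ_G0018910, the member with the highest ND ratio, varied among replicates in the same way as some others. After group means were removed from log2 CPM, 8 other members had a correlation with it of at least 0.8 over the 12 libraries, 5.37% of the members against 0.991% of all eligible rows. These values share libraries and scaling, are a description chosen after the data were seen, and carry no test. MGP_C57BL6NJ_G0037374, with as few as 5 counts in a library, was one of the 8. The closest of them, ranked 3 by ratio, had 0.0661, 1.19 and 1.21 CPM in WT ND, 1.44, 4.49 and 4.36 CPM in KO ND, 1.74, 0.0686 and 0.948 CPM in WT HFD and 2.62, 0.595 and 0.884 CPM in KO HFD. It was low in WT ND replicate 1 and WT HFD replicate 2, as MGP_C57BL6NJ_G0018910 was at 2.11 and 2.06 CPM. In each of these libraries the member ranked 3 had only 1 count. How far its correlation rests on such low counts was not tested. Over all pairs of members the median correlation of this kind was 0.06.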
